A study of Homo sapiens with 8 samples.

Results

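The genes that move a cell from G1 into S phase were examined in A673 Ewing sarcoma cells with and without knockdown of FEZF1. The 10 genes are the D-type cyclins CCND1, CCND2 and CCND3, the E-type cyclins CCNE1 and CCNE2, the kinases CDK4, CDK6 and CDK2, the inhibitor CDKN1B and the retinoblastoma gene RB1. They were chosen by name, with earlier results of these data known. All 10 were among the 34792 gene symbols to which reads could be summed and among the 15993 genes with enough reads for a test. A673 is a tumor line that carries EWSR1-FLI1, and A673/TR is a single clone of it picked for its high tetracycline repressor. A673/TR/shFEZF1 cells also hold an shRNA against FEZF1 that is transcribed when doxycycline is added. The 4 control libraries came from untreated cells (the polyclonal population, labelled bulk, and clones 3, 5 and 6), and the 4 doxycycline libraries from the same 4 origins after 72 h at 1 µg/mL. Each clone is 1 clone, chosen for strong loss of FEZF1 protein. No culture had doxycycline without the shRNA, so the effects of the drug and of the shRNA cannot be told apart.

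D-type cyclins bind CDK4 and CDK6 in response to growth signals and start to phosphorylate the RB1 protein, which holds E2F transcription factors in check. Released E2F factors switch on CCNE1 and CCNE2, whose products activate CDK2 and complete the phosphorylation of RB1. CDKN1B, the gene of p27, encodes an inhibitor of cyclin-CDK2 complexes that is mainly controlled through degradation of the protein. Ewing sarcoma lines are known for high CCND1 expression, which EWSR1-FLI1 sustains, and A673 is known to lack the CDKN2A locus, whose product p16 inhibits CDK4 and CDK6.

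FEZF1, the target of the shRNA, was at 96.4, 70.5, 107 and 74.4 CPM (read counts scaled to library size, after TMM normalization) in the control libraries of the polyclonal population and clones 3, 5 and 6. With doxycycline it was at 60.6, 43.0, 60.8 and 36.4 CPM, so that it was lower in 4 of 4 pairs and the groups did not overlap (log2 fold change -0.81, standard error 0.073, adjusted p = 0.0059, edgeR quasi-likelihood test with origin as the replicate block). FEZF1 overlaps the antisense gene FEZF1-AS1, and whether the quantification used the strand of the reads is not given in the sources used here. All 6 Ewing sarcoma markers examined were present, from 14.5 TPM (a level that also corrects for transcript length) for BCL11B to 3671 TPM for CD99, and 4 of them (NR0B1, NKX2-2, STEAP1 and PRKCB) were higher with doxycycline in 4 of 4 pairs, CD99 and BCL11B in 3 of 4. NR0B1 was at 51.6 to 71.2 TPM in controls and 91.5 to 105 TPM with the drug. The leukocyte marker PTPRC did not exceed 0.07 TPM and the endothelial marker PECAM1 did not exceed 0.291 TPM. The epithelial marker EPCAM ran from 0.037 to 1.99 TPM in controls and from 0.566 to 3.39 TPM with doxycycline. EPCAM and PECAM1 were higher with doxycycline in 4 of 4 pairs, and the part of these markers in the results was not tested. Assigned reads ran from 26719886 to 42422421 per library. Bulk RNA cannot tell fewer cells of a type from less RNA per cell, and p-values here measure only the spread between these cultures.

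CCND1 dominated the G1 cyclins in every library. In TPM, the only scale here on which levels of different genes can be compared, CCND1 (gene ID 595; chromosome 11, 69641156 to 69654474, plus strand, GRCh38) averaged 947 TPM over the 8 libraries, with a range from 838 to 1044 TPM. Among the 34792 genes its rank in a library was between 112 and 142. CDK4, the kinase that D cyclins activate, followed at 213 TPM (195 to 247), and CDK2, the partner of E cyclins, at 89.95 TPM (83.4 to 96.2). CCND1 was above CDK4 by 4.44-fold on average, CDK4 above CDK2 by 2.37-fold and CDK2 above CDKN1B by 2.30-fold, and the ranges of these neighbors did not overlap in the 8 libraries.

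**Figure D1:**
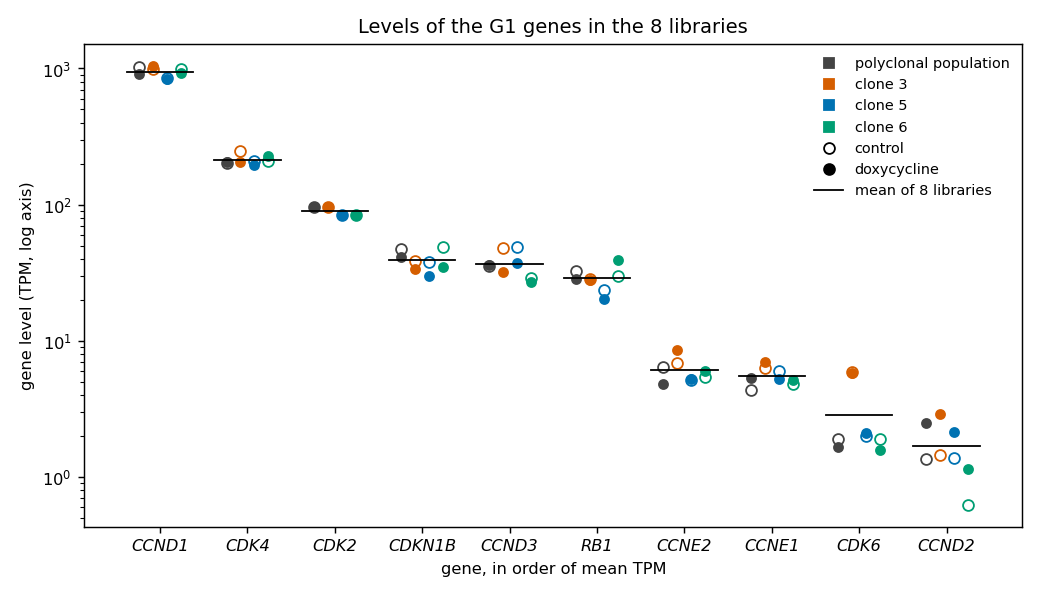
Gene level in TPM on a log axis for the 10 G1 genes in order of their mean, with 1 open point per control library, 1 filled point per doxycycline library, a color for each origin and a black line at the mean of the 8 libraries. CCND1 stands at 838 to 1044 TPM in all libraries, and clone 3 stands apart for CDK6.

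Below CDK2 the order was closer. CDKN1B averaged 39.0 TPM (30.2 to 49.1), CCND3 36.6 TPM (27.03 to 48.7) and RB1 28.8 TPM (20.4 to 39.1), and these 3 overlapped. A gap of 4.74-fold separated RB1 from CCNE2, which averaged 6.08 TPM (4.84 to 8.52). CCNE1 averaged 5.52 TPM (4.37 to 6.94), CDK6 2.86 TPM (1.57 to 5.87) and CCND2 1.68 TPM (0.625 to 2.90), each overlapping its neighbor. The RB1 and CCNE1 levels are too low by an unknown amount, and their fold changes describe the matched transcripts only, since the transcripts matched to these symbols held 77.0% and 66.9% of the authors' mean normalized count for the gene. For the other 8 members this share was between 94.5% and 99.3%.

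Within each family, 1 member supplied most of the transcripts for the D cyclins and their kinases, but not for the E cyclins. CCND1 made up 94.5% to 97.1% of the summed D cyclin TPM, CCND3 nearly all of the remainder. CDK4 made up 97.3% to 99.3% of the summed TPM of CDK4 and CDK6. CCNE1 was at 40.3% to 53.5% of the sum of CCNE1 and CCNE2 as matched. When both were scaled up to the authors' mean normalized counts, an alternative added after the data were seen that takes the unmatched share as equal in all libraries, CCNE1 averaged 8.25 and CCNE2 6.14 TPM, and CCNE1 was at 49.9% to 63.0% of the sum. Which of the E cyclins was higher thus depends on the unmatched transcripts. The means with and without doxycycline were 96.3% ± 0.706 and 95.8% ± 1.19 for CCND1 (SD, n = 4 each), 48.3% ± 3.48 and 47.2% ± 5.43 for CCNE1, and 98.7% ± 0.955 and 98.7% ± 0.696 for CDK4. No share passed the test of doxycycline against control (exact permutation test within pairs, 2-sided p = 0.5, 1.0 and 0.75), and 4 pairs cannot give a p below 1 in 8. The mean differences within pairs were 0.480 ± 0.969, 1.05 ± 7.38 and -0.052 ± 0.287 percentage points (SD, n = 4 pairs).

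Of the 10 members, 2 passed the test of doxycycline against control: CCND2 rose and CDKN1B fell. Over all genes the same test called 7.63% (1221 of 15993), 3.73% higher and 3.91% lower. The median log2 fold change was -0.042 over the 10 members and 0.0042 over all genes tested. With no replicate block 0 members were called (2 at an unadjusted p under 0.05), beside 1 gene, PSMB2, or 0.00625%, over all genes (1155 unadjusted). DESeq2 with the replicate block also called CCND2 and CDKN1B, among 1920 of the 15993 genes, and without the block it called neither.

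**Figure D2:**
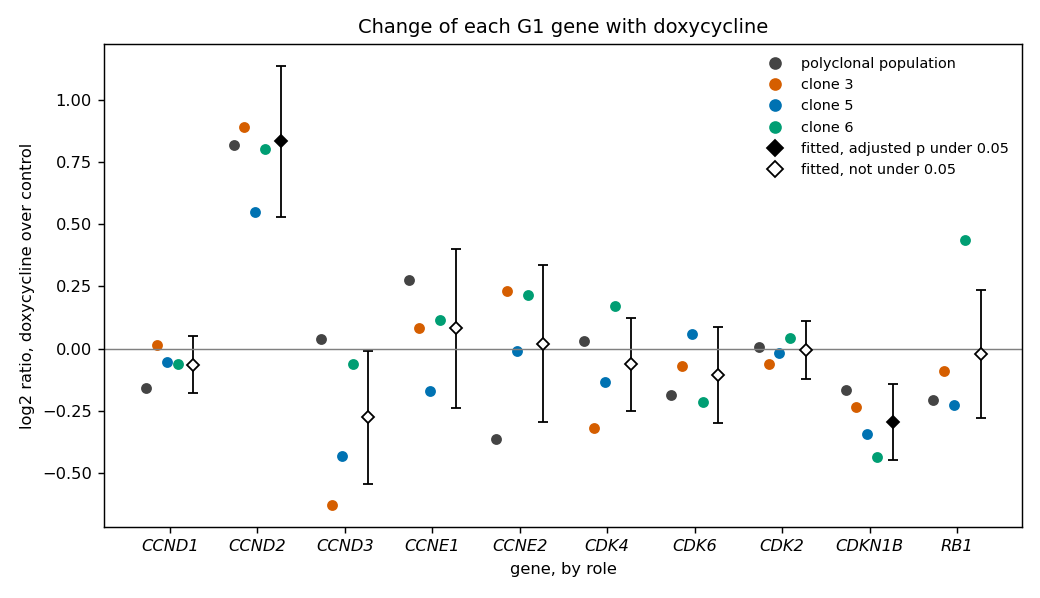
Log2 ratio of doxycycline to control CPM for each member, with a colored point for each pair of libraries (0.5 CPM added to both), and the fitted log2 fold change with its 95% confidence interval as a diamond. CCND2 is above 0 and CDKN1B below 0 in all 4 pairs, while the points of RB1, CCNE2 and CDK4 lie on both sides of 0.

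CCND2 (gene ID 894; chromosome 12, 4273762 to 4305353, plus strand) encodes cyclin D2, and was the least abundant of the 3 D cyclins. In the controls it was at 4.99 CPM in the polyclonal population, 5.64 in clone 3, 5.55 in clone 5 and 2.53 in clone 6. With doxycycline it was at 9.18, 10.9, 8.36 and 4.79 CPM in the same order. Every origin rose, yet the groups overlapped, because clone 6 was low in both states and its doxycycline library lay below the other controls. The mean level went from 4.68 ± 1.46 to 8.30 ± 2.56 CPM (SD of the 4 libraries), and the fitted change was 1.78-fold (95% confidence interval 1.44 to 2.20; log2 fold change 0.83, standard error 0.131, adjusted p = 0.0154, edgeR). These values rest on 63 to 374 reads per library. CCND2 was past the threshold in 7 of the 12 alternative analyses: it was at adjusted p = 0.0469 without the polyclonal pair, and at 0.0530, 0.0518 and 0.0590 without clone 3, 5 or 6. In TPM the mean went from 1.204 to 2.16, beside 966 and 928 TPM for CCND1.

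CCND1 itself did not pass the test. It was at 2399, 2498, 2204 and 2605 CPM in the control libraries of the polyclonal population and clones 3, 5 and 6, and at 2152, 2521, 2123 and 2498 CPM with doxycycline. It was lower in 3 of 4 pairs and slightly higher in clone 3, with overlapping groups. The fitted log2 fold change was -0.06 (standard error 0.0495, adjusted p = 0.477, edgeR), with a 95% confidence interval from 0.883-fold to 1.04-fold of the control level. Between 59392 and 94802 reads per library stand behind these values.

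CCND3 (gene ID 896; chromosome 6, 41934933 to 42050035, minus strand), the gene of cyclin D3, had 38.04, 54.8, 57.1 and 34.7 CPM in the controls and 39.1, 35.3, 42.3 and 33.2 CPM with doxycycline. The clone 3 and clone 5 pairs carried the difference, and the polyclonal pair did not share it. Its log2 fold change was -0.28 (95% confidence interval -0.54 to -0.01), which did not pass after adjustment over all genes (adjusted p = 0.188, edgeR). The value moved from -0.39 without the polyclonal pair to -0.15 without the clone 3 pair.

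The E cyclins were low and showed no change past the threshold. CCNE1 (gene ID 898; chromosome 19, 29811991 to 29824312, plus strand) was at 4.45, 6.87, 6.60 and 5.55 CPM in controls and 5.50, 7.30, 5.81 and 6.06 CPM with doxycycline, from 138 to 251 reads per library. CCNE2, gene of the second E cyclin, was at 9.47, 10.9, 8.45 and 8.81 CPM in controls and at 7.25, 12.9, 8.40 and 10.3 CPM with doxycycline. The groups overlapped for both genes, and neither moved in 1 direction in all pairs. The log2 fold change was 0.08 for CCNE1 (95% confidence interval -0.24 to 0.40, adjusted p = 0.770, edgeR) and 0.02 for CCNE2 (-0.30 to 0.33, adjusted p = 0.952). These intervals span 0.849-fold to 1.32-fold and 0.814-fold to 1.26-fold.

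CCNE1 reads matched to its symbol were split mainly between a pair of transcripts that differ at the start of the protein. The matched transcripts held 66.9% of the authors' mean normalized count for the gene. Of the matched counts over the 8 libraries, NM_001238.4 (1954 bases) held 59.6% and NM_001322262.2 (1907 bases) 38.3%. Their lengths differ by 47 bases, which is the length of exon 2 of the 12-exon transcript in GENCODE release 44 (chromosome 19, 29812532 to 29812578, GRCh38) and of no other exon. That the shorter transcript lacks this exon is thus inferred from length. Exon 2 holds the first start codon and 23 coding bases, printed here in capitals, and the next start codon in the same frame comes after 15 codons, as the last 3 bases shown.
CCNE1 coding start: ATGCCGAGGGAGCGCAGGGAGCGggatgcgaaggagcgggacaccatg
The share of the shorter transcript was 38.1%, 52.2%, 86.5% and 0.0% in the control libraries of the polyclonal population and clones 3, 5 and 6, and 35.9%, 42.5%, 0.0% and 35.4% with doxycycline. The estimated share thus fell to 0.0% in clone 5 and rose from 0.0% in clone 6, with no direction common to the origins. At most 251 reads for the gene stand behind it, and 0.0% in 1 library does not show that the transcript was absent. The log2 fold change of the shorter transcript had a standard error of 3.01. Neither transcript passed the test (adjusted p = 0.904 and 0.9999 over 49037 transcripts, edgeR), and no transcript of any other gene did.

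CDK4 (gene ID 1019; chromosome 12, 57747727 to 57752310, minus strand), the more abundant of the kinases activated by D cyclins, was at 199, 260, 227 and 229 CPM in controls and at 203, 209, 207 and 258 CPM with doxycycline. The doxycycline library was lower in clones 3 and 5 and higher in the polyclonal population and clone 6. The log2 fold change was -0.06 (95% confidence interval -0.25 to 0.12, adjusted p = 0.691, edgeR). CDK2 (gene ID 1017; chromosome 12, 55966830 to 55972789, plus strand) varied little between libraries, at 114, 121, 109 and 111 CPM in controls and at 115, 116, 107 and 115 CPM with doxycycline. Its log2 fold change was -0.01 (95% confidence interval -0.12 to 0.11, adjusted p = 0.952), and the interval spans 0.918-fold to 1.08-fold.

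The share of a shorter CDK2 transcript was higher with doxycycline in every pair, although its counts did not pass the test. NM_001798.5 (2240 bases) held 79.3% of the estimated counts and NM_052827.4 (2138 bases) 16.5%. They differ in length by 102 bases, which matches only exon 5 of the 7 exons in the GENCODE transcript (chromosome 12, 55969475 to 55969576, GRCh38). This exon is coding throughout, lies in the part that encodes the kinase domain, and makes up 34 whole codons, so that leaving it out keeps the reading frame. That NM_052827.4 lacks it is again inferred from length. The lines show the coding strand around it, with exon 5 in capitals and 24 bases of each neighboring exon in lower case.
CDK2 with exon 5: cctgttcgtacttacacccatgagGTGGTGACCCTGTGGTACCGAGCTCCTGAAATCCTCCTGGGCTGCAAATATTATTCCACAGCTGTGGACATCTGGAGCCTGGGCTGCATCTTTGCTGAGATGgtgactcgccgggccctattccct
CDK2 without exon 5: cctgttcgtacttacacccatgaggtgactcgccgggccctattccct
The shorter transcript held 13.0%, 15.9%, 14.0% and 5.82% of CDK2 counts in the control libraries of the polyclonal population and clones 3, 5 and 6, and 15.8%, 29.6%, 17.9% and 16.6% with doxycycline. Its share was higher with doxycycline in 4 of 4 pairs, by little in the polyclonal population and by most in clones 3 and 6, and the groups overlapped narrowly, at 15.8% and 15.9%. The log2 fold change of its counts was 0.73 (standard error 0.254), short of the threshold over all transcripts tested (adjusted p = 0.687, edgeR). No transcript of any gene passed that test. The longer transcript was at -0.17 (standard error 0.0740, adjusted p = 0.760).

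CDK6 (gene ID 1021; chromosome 7, 92604921 to 92836573, minus strand) encodes the other kinase of D cyclins, and was marked by clone 3. It was at 12.8, 41.6, 14.5 and 14.0 CPM in the controls of the polyclonal population and clones 3, 5 and 6, and at 11.2, 39.6, 15.1 and 12.03 CPM with doxycycline. Clone 3 was high in both states, and the other 6 libraries lay within 11.2 to 15.1 CPM. The change with doxycycline was small by comparison (log2 fold change -0.10, 95% confidence interval -0.30 to 0.09, adjusted p = 0.497, edgeR). Of its counts, 75.7% went to NM_001259.8 and 24.3% to NM_001145306.2, which have deposited lengths of 11654 and 11663 bases. The share of NM_001145306.2 was between 0.0% and 54.8% in single libraries, and it was 0.0% in 3 of them.

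CDKN1B (gene ID 1027; chromosome 12, 12717368 to 12722369, plus strand), the gene of the CDK inhibitor p27, fell with doxycycline. It was at 63.9, 55.7, 56.3 and 74.0 CPM in the control libraries of the polyclonal population and clones 3, 5 and 6, and at 56.8, 47.3, 44.2 and 54.7 CPM with doxycycline. It was lower in 4 of 4 pairs, least in the polyclonal population and most in clone 6, and the groups overlapped at 55.7 to 56.8 CPM. The mean level went from 62.5 ± 8.56 to 50.8 ± 5.96 CPM (SD of the 4 libraries), and the fitted fall was 1.23-fold (log2 fold change -0.30, standard error 0.0658, adjusted p = 0.0392, edgeR). The call was lost without any 1 of the pairs, at adjusted p = 0.0609 without the polyclonal pair and 0.0773, 0.142 and 0.128 without clone 3, 5 or 6. It was also lost with curated transcripts only, at adjusted p = 0.0615, where the calls over all genes fell from 1221 to 493.

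RB1 (gene ID 5925; chromosome 13, 48303751 to 48481890, plus strand) encodes the pocket protein that binds E2F factors. In the controls it was at 87.6, 81.1, 68.5 and 88.4 CPM in the polyclonal population and clones 3, 5 and 6, and with doxycycline it was at 75.8, 76.1, 58.6 and 120 CPM. It was lower in 3 pairs and higher in clone 6, by 0.44 on the log2 scale. The fitted log2 fold change was -0.02 (95% confidence interval -0.28 to 0.23, adjusted p = 0.929, edgeR), and without the clone 6 pair it was -0.18 (adjusted p = 0.209).

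More genes were called between the origins than with doxycycline. These are unlike tests, over 4 origins and between doxycycline and control, so their rates do not measure which differences are more common. An F-test of the origin terms in the same edgeR model called 39.4% of all genes and 4 of the 10 members, CDK6, CCND2, RB1 and CDKN1B. The share among the members was thus near that over all genes. CDK6 averaged 40.61 CPM in clone 3, 3.06-fold above the mean of the other origins (11.98, 14.8 and 13.03 CPM in the polyclonal population, clone 5 and clone 6; adjusted p = 0.000192, edgeR). CCND2 averaged 3.66 CPM in clone 6, and the mean of the other origins was 2.03-fold higher (adjusted p = 0.0111). RB1 was highest in clone 6 at 104 CPM and lowest in clone 5 at 63.6 CPM (adjusted p = 0.0389). CDKN1B was also highest in clone 6, at 64.3 CPM, and lowest in clone 5, at 50.3 CPM (adjusted p = 0.0403). With curated transcripts only, 2 members were called between origins, CCND2 and CDK6, and a DESeq2 likelihood ratio test added CCND1 to the 4. For CCND1 the origins ran from 2164 CPM in clone 5 to 2551 CPM in clone 6 (adjusted p = 0.0629, edgeR).

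**Figure D3:**
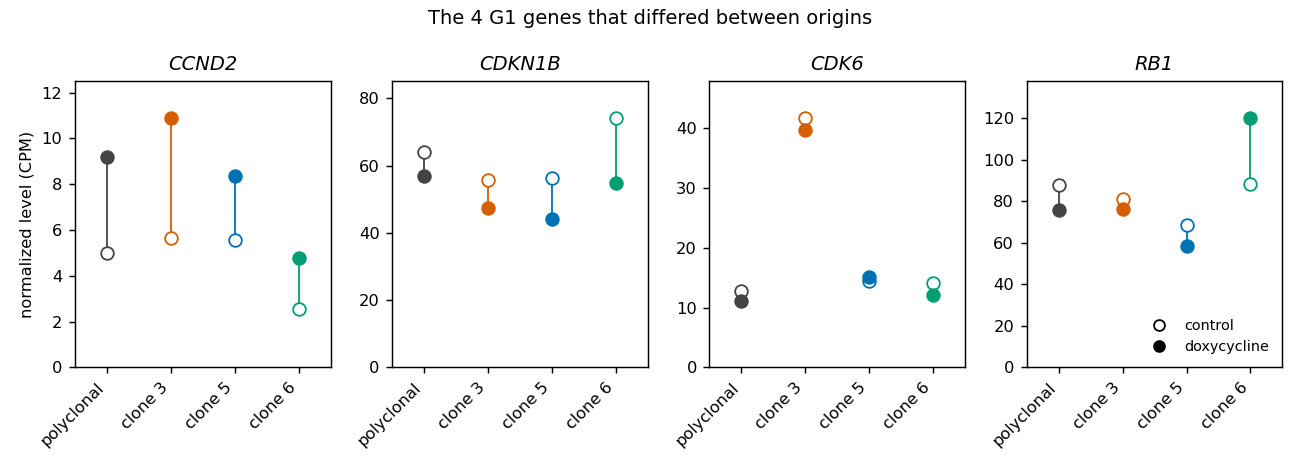
Normalized level in CPM of the 4 members called between origins, with an open point for the control and a filled point for the doxycycline library of each origin, joined by a line. Each axis starts at 0. CDK6 is at 39.6 to 41.6 CPM in clone 3 and at 11.2 to 15.1 CPM elsewhere, and the lines of CCND2 all point up while those of CDKN1B all point down.

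At the level of transcripts, 26 transcripts were matched to the 10 members. CCND1, CCND2, CDK4, CDKN1B and RB1 had 1 matched transcript each, so their gene values are those of NM_053056.3, NM_001759.4, NM_000075.4, NM_004064.4 and NM_000321.2. CCND3 had 7 matched transcripts, of which NM_001760.5 held 92.9% of the counts, and CCNE2 had 4, of which NM_057749.2 held 97.4%. NM_001760.5 was at 79.0% of CCND3 in the doxycycline library of clone 5 and at 90.5% to 98.9% in the other libraries. Of the 26 transcripts, 16 had enough reads for the edgeR test, and 0 passed it, with 3 at an unadjusted p under 0.05: those of CCND2 and CDKN1B and the shorter CDK2 transcript. Over all 49037 transcripts tested the share called was 0.0%, with 3452 at an unadjusted p under 0.05. CCND2 and CDKN1B passed at the gene level, where their counts are those of 1 matched transcript each. Here the same transcripts were at adjusted p = 0.522 and 0.497 (edgeR). Failing the transcript test therefore does not show that a transcript was unchanged. The fit takes the split of reads between transcripts as known, and does not hold the uncertainty of that split.

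**Figure D4:**
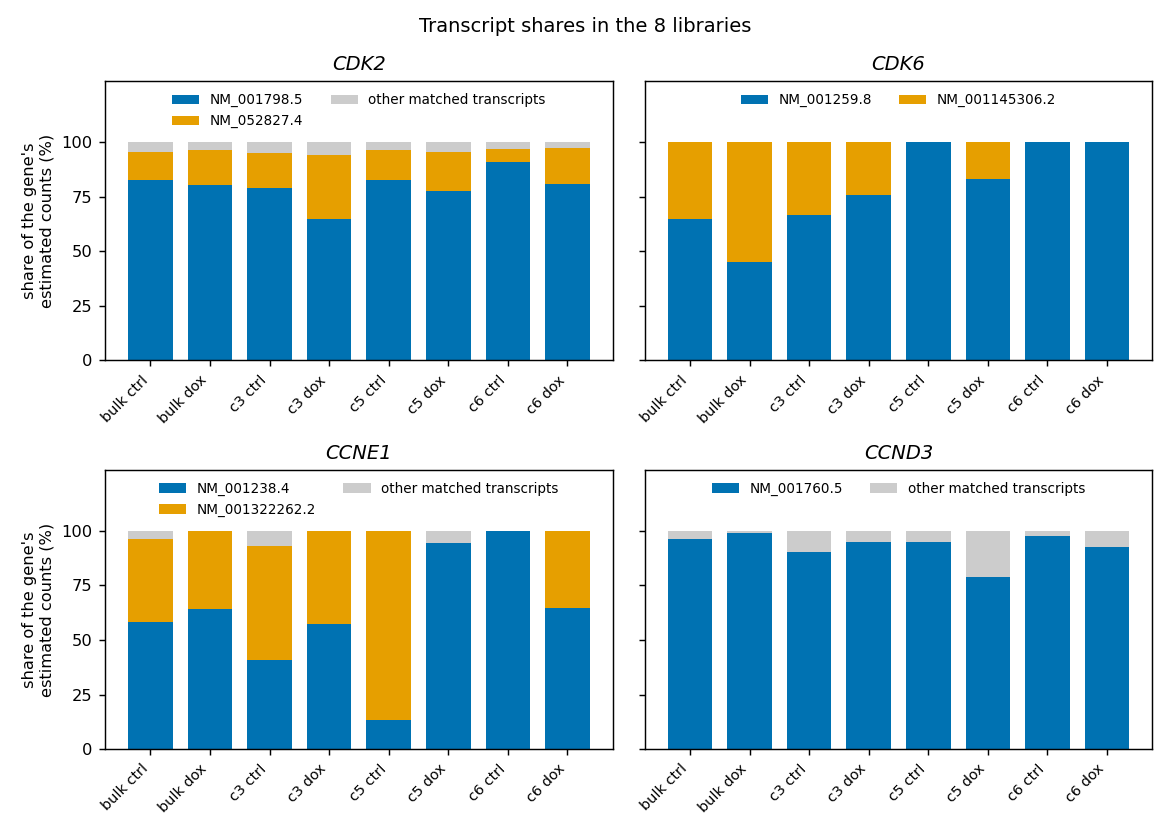
Share of each gene's matched estimated counts held by its transcripts in the 8 libraries. Shown are 4 of the 5 members with more than 1 matched transcript (CCNE2 is left out). Named transcripts hold at least 10% over all libraries, and gray is the sum of the other matched transcripts. The orange CDK2 transcript is larger with doxycycline in each pair, while the orange shares of CCNE1 and CDK6 run from 0% to 86.5% and 54.8% with no common order.

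The rest of the G1 network was described with a list of 46 other genes, of which 44 were tested and 8 were called, 7 lower and 1 higher, beside 7.63% of all genes called. The median log2 fold change of the 44 was -0.030, and that of all genes 0.0042. The genes called lower were an inhibitor, a pocket protein, 3 E2F factors and E2F-responsive genes. With the clone 6 pair left out 0 of the 44 were called (21 at an unadjusted p under 0.05, edgeR), and without the clone 5 pair only E2F8 was. Calls over all genes fell too, to 230 of 16436 without clone 6 (3162 unadjusted) and 175 of 15999 without clone 5. DESeq2 with the replicate block called 17 of them (13 lower, 4 higher), and with DESeq2's size factors in edgeR 7 were called, all lower, MYC being lost.

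**Figure D5:**
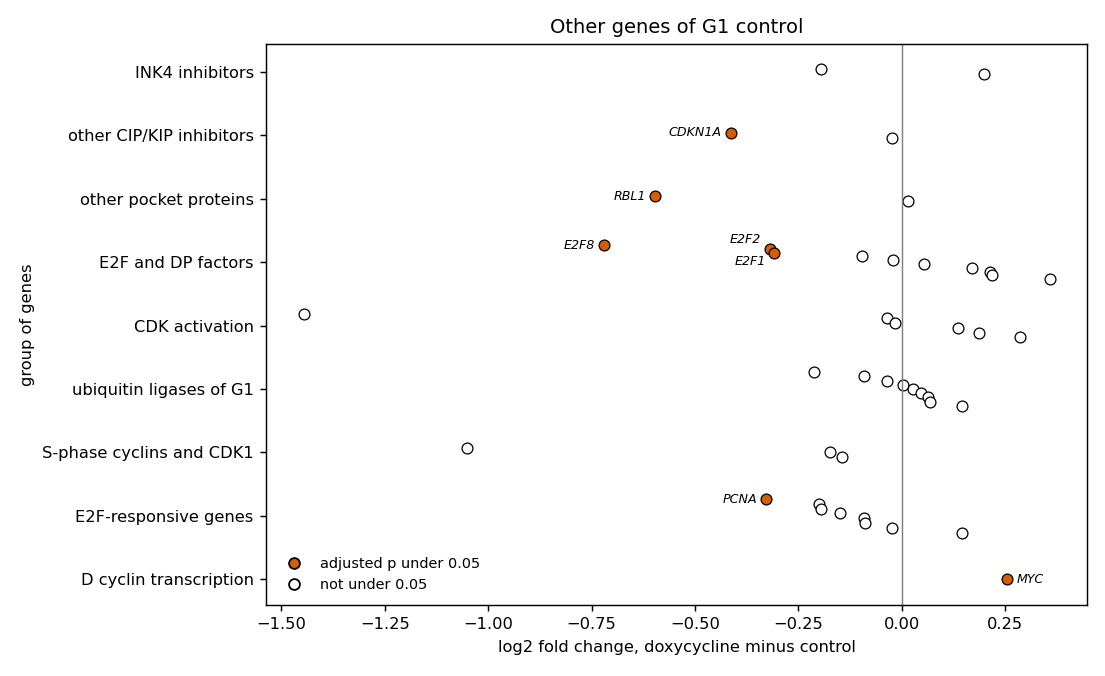
Fitted log2 fold change of 43 of the 44 other G1 genes tested, 1 point per gene and 1 line per group, with called genes filled and named. The points of the E2F and DP factors lie between -0.72 and 0.36, with E2F8, E2F1 and E2F2 called lower.

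Among the inhibitors, CDKN1A, the p53 target that encodes p21, fell from 59.4, 91.6, 73.3 and 60.3 CPM in the controls of the polyclonal population and clones 3, 5 and 6 to 48.4, 68.3, 48.1 and 48.1 CPM with doxycycline. It was lower in 4 of 4 pairs with groups that overlapped (log2 fold change -0.41, standard error 0.0692, adjusted p = 0.0180, edgeR). CDKN1C, the gene of p57, was at -0.02 and did not pass. Of the INK4 inhibitors, which act on CDK4 and CDK6 alone, CDKN2A had 0 to 6 reads in a library and CDKN2B had 0 reads in all 8, which allows up to 3 reads, or 0.0707 to 0.112 CPM. Neither could be tested, and of CDKN2C and CDKN2D neither passed (log2 fold change -0.20 and 0.20). CDKN2C was lower in 4 of 4 pairs, and DESeq2 with the replicate block called it (adjusted p = 0.0255), as 1 of the 12 alternatives. CDKN2D was higher in 4 of 4 pairs and was called in 0 of the 12.

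RBL1, which encodes the pocket protein p107, fell from 44.4, 43.2, 40.8 and 50.2 CPM to 30.0, 34.4, 26.9 and 26.8 CPM. Its groups did not overlap, and clone 6 showed the largest drop (log2 fold change -0.60, standard error 0.0954, adjusted p = 0.0161, edgeR). RBL2, the gene of the related p130, was at 0.01. E2F8, an atypical E2F that represses E2F targets, fell in 4 of 4 pairs, from 15.7, 14.5, 9.47 and 17.7 CPM to 9.79, 7.64, 6.54 and 10.7 CPM (log2 fold change -0.72, adjusted p = 0.0124). The activators E2F1 and E2F2 had smaller changes of -0.31 and -0.32 (adjusted p = 0.0360 and 0.0255), each lower in 4 of 4 pairs. The groups of E2F1 did not overlap, at 137 to 157 CPM in controls and 106 to 133 CPM with doxycycline. With curated transcripts only, E2F2 was at 0.08 in the other direction (adjusted p = 0.903). The other 7 E2F and DP factors did not pass, and ranged from -0.10 for E2F3 to 0.36 for E2F5. E2F3 was at -0.71 with curated transcripts only (adjusted p = 0.0588), E2F5 was called in 2 of the 12 alternatives, and TFDP2, the gene of a DP partner of E2F factors, went from 0.21 to 0.40 and was called with an effective length offset (adjusted p = 0.0163).

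Of the E2F-responsive genes described here, PCNA was called. PCNA, the sliding clamp of DNA polymerases, had 386 to 519 CPM over the control libraries and 293 to 447 CPM with doxycycline (log2 fold change -0.33, adjusted p = 0.0263, edgeR). It was lower in 4 of 4 pairs, with groups that overlapped. The other 7, among them the replication licensing gene MCM2 and the thymidylate synthase gene TYMS, lay between -0.20 and 0.15. MCM2, TYMS and TK1, the gene of a thymidine kinase, were lower in 4 of 4 pairs. DESeq2 with the replicate block called them (adjusted p = 0.0130, 0.0077 and 0.0292). Across the 12 alternatives TYMS was called in 2, MCM2 and TK1 in 1 each, and the rest of the 7 in 0. MYC, a transcription factor that acts on D cyclin genes, was at 181 to 186 CPM in 3 controls and 162 in clone 6, and at 209, 222, 243 and 178 CPM with doxycycline in the polyclonal population and clones 3, 5 and 6. It was higher in 4 of 4 pairs (log2 fold change 0.26, adjusted p = 0.0442).

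In the remaining groups the edgeR fit called 0 genes. The 6 genes of CDK activation had a median log2 fold change of 0.06 (2 at an unadjusted p under 0.05). They ran from -1.45 for CDC25A to 0.28 for CDK7. CDC25A was lower in 4 of 4 pairs (standard error 0.658, adjusted p = 0.225, edgeR). The 9 ubiquitin ligase genes of G1 had a median of 0.03 (2 unadjusted). Over all genes in the same fit, 3970 of 15993 were at an unadjusted p under 0.05. The S-phase cyclins CCNA1 and CCNA2 and the mitotic kinase gene CDK1 were at -1.05, -0.15 and -0.17 (3 of 3 unadjusted, adjusted p = 0.0796, 0.143 and 0.134), and CCNA1 had at most 1.53 CPM in any library. DESeq2 with the replicate block called CDC37, CDK7, CUL1 and CDK1 among these 18 genes. Levels and changes of MNAT1, CDC25A, SKP2 and FBXO4 are uncertain, since the matched transcripts held 19.8%, 17.6%, 47.4% and 65.0% of the authors' mean normalized count. Across the 12 alternative analyses, RBL1 and E2F8 were called in 9, CDKN1A in 7, E2F1 and PCNA in 6, E2F2 in 5 and MYC in 4.

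The pattern of CCND1 over the libraries was set beside that of all 9444 genes with a mean of at least 10 CPM. The 5 most alike were KIF20B, a mitotic kinesin (Pearson r = 0.979 of log2 CPM over 8 libraries), HNRNPR, which encodes an RNA-binding protein (0.9754), the Golgi membrane protein gene TMEM165 (0.974), VPS36, of endosomal sorting (0.973), and LRRC8C, a subunit gene of volume-regulated anion channels (0.973). These libraries are 4 pairs from 4 origins and share their scaling, and the 5 were picked as the highest of many, so the values are a description only.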

How the data were processed

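The members, lists, tests and rules were chosen with earlier results of these data known. RNA of 8 cultures was sequenced from stranded mRNA libraries with short paired-end reads. Per library, the authors deposited the estimated counts, TPM and lengths of 158867 RefSeq transcripts, as given by Salmon for GRCh38. They also deposited a DESeq2 table, whose normalized counts averaged over all libraries (a signal) were used only to see how complete each gene sum was, and whose fold changes and p-values were not used. The control table of clone 5 (1 library) was in another row order and was joined by transcript ID.

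Of the transcripts, 115325 (72.59%) matched a gene symbol, with 89.9% to 91.1% of the assigned reads, and were summed to 34792 genes. Estimated counts were rounded, filtered with filterByExpr, scaled by TMM and fitted in edgeR 4.0.16 under R 4.3.3 for its quasi-likelihood test, and p-values were adjusted over all features (Benjamini-Hochberg, threshold 0.05). The origin was the replicate block, because 1 control and 1 doxycycline library came from the cells of each origin: deviations from the group means correlated at 0.406 to 0.590 within an origin and at -0.395 to 0.179 between origins. Per-pair ratios used a pseudocount of 0.5 CPM. Alternatives were no block, DESeq2 1.42.0, DESeq2 size factors, filters of 1 count in any or 10 counts in every library, curated transcripts only, an effective length offset and leaving out each pair. The edgeR and DESeq2 fits of genes and the edgeR fits of transcripts, with and without the block, were also run on simulated counts. The test between origins and the other alternatives were not. Named genes were the 10 members, FEZF1 and the 5 genes most like CCND1. The called genes of the G1 list (at most 12) were also named, with CDKN2A, CDKN2B and CDKN1A. So were transcripts with at least 10% of their gene's matched counts. PSMB2, CCNA1, CCNA2, CDK1, CDKN1C, CDKN2C, CDKN2D, RBL2, E2F3, E2F5, MCM2, TYMS, TK1, MNAT1, CDC25A, SKP2, CDC37, CDK7, CUL1, TFDP2 and FBXO4 were named after their values were seen, to account for their groups. Exons and sequences are from GENCODE release 44. Python 3.11.15, pandas 2.3.3, numpy 2.4.6, scipy 1.17.1 and matplotlib 3.10.9 were used. No interval covers more than the counting and culture spread stated beside it, and a floor of 3 counts covers counting error only. Of the other G1 genes, 1 is counted in the totals but not reported here.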

Additional observations from a re-analysis of the deposited data

Results flagged for a closer look

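In 28 groups of 4 libraries, each a member, a share or the assigned reads in 1 condition, the highest and lowest library were set against the others by Dixon's ratio of gap to range. There were 4 groups with a library far from the rest, and chance marks about 1 in 20 groups, or 1.4 of 28. The CDK6 level of clone 3 stood apart in both conditions, at 41.6 CPM in the control library (the other controls were at 12.8 to 14.5) and at 39.6 CPM with doxycycline (others 11.2 to 15.1). The share of CDK4 in the summed TPM of CDK4 and CDK6 was accordingly low in the clone 3 control, at 97.7% against 99.1% in the other 3. CDK4 in the doxycycline library of clone 6 was at 258 CPM, with the others at 203 to 209.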

How the results depend on the processing

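The counts of calls depended most on the pairing and on the number of pairs. With no replicate block edgeR called 1 gene (PSMB2) in place of 1221, 0 members (2 at an unadjusted p under 0.05) and 0 of the G1 list (9 unadjusted). DESeq2 called 1920 genes and 17 of the list with the block, and 232, 0 members (2 unadjusted) and 1 of the list without it. Over all genes with no block, 1155 were at an unadjusted p under 0.05 in edgeR and 1323 in DESeq2. With curated transcripts only, edgeR called 493 genes, 1 member, 5 of the list and 2 members between origins. A filter of 10 counts in every library gave 13 of the list. Leaving out 1 pair gave 175 to 699 genes (lowest without clone 5), 0 to 1 members and 0 to 5 of the list. At the gene level the direction turned, never with a call, for CCNE2 (-0.059 to 0.15 with 1 pair left out), CDK4 (-0.14 to 0.023), CDK2 (-0.024 to 0.011) and RB1 (-0.18 to 0.037, 0.020 with no replicate block and 0.0093 under DESeq2 with no block). The cause of these shifts was not tested. CCND2 was at adjusted p = 0.603 and CDKN1B at 0.671 with no replicate block, and at 0.295 and 0.455 under DESeq2 without it, each in the same direction. Of 120 values for the members under the alternatives, 99 kept direction and side of the threshold. With all pairs kept, no share of cyclins or kinases moved by more than its spread. Leaving out 1 pair cannot test this, because dropping 1 pair cannot shift the mean difference by as much as that spread. No conclusion on the stability of the shares is drawn from leaving out pairs. The difference in the CCNE1 share turned to -2.61 percentage points without the polyclonal pair, against 1.05 with all pairs, and that in the CDK4 share to 0.0704 without clone 3, against -0.052. Scaling to complete gene sums, added after the data were seen, gave 1.08 for the CCNE1 share. Depth limits CCND2 and CCNE1 most, with as few as 63 and 138 reads in a library.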
